A study of Mus musculus with 13 samples.

Results

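Spinster homolog 1 (Spns1) is a lysosomal transporter, and mice that lose it in the proximal tubule were set here beside mice loaded with iron by injection. All 4 libraries labelled Spns1 KO were compared directly with all 4 libraries labelled FeO, which makes 8 of the 13 libraries of the study. The members were chosen by their labels, without the use of any measured value. The WT libraries, 5 in number, entered no test and are given only as a level on the same scale. Spns1 KO kidneys came from female mice with the Megalin3'Cre-Ert allele, Spns1 flox/flox and Uprt flox/+. In these, tamoxifen activates a Cre recombinase driven by the megalin promoter, and exon 3 of Spns1 is removed from cells that express megalin. FeO kidneys came from female mice with Megalin3'Cre-Ert and Uprt flox/+, whose Spns1 the methods give as flox/+ and the labels as WT. They were given 12 mg of iron as iron sucrose on each of 3 days and examined 1 week after that. WT mice had the genotype of the FeO mice and no iron, and tamoxifen was given to all groups. The groups compared here therefore differed in Spns1 genotype as well as in the injected iron. Ages are not given in the sources used here, and the labels do not say that each library is a separate animal, so the p-values measure the spread between these libraries.

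The proximal tubule is the first segment of the nephron. It takes back glucose, amino acids, phosphate, bicarbonate and filtered proteins through transporters and endocytic receptors in a dense brush border. Filtered transferrin reaches its lysosomes through megalin and cubilin, and iron leaves the endosome or lysosome through divalent metal transporter 1 (DMT1) or is stored in the cytosol in ferritin. Iron injected into the peritoneum is not limited to the proximal tubule, and macrophages take up much of it. The RNA was labelled with 4-thiouracil, which only cells with uracil phosphoribosyltransferase (Uprt) use efficiently, then captured and sequenced from poly-A RNA. The captured RNA contained transcripts of other nephron segments as well.

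Between 31809135 and 71296474 counts were assigned in each Spns1 KO library and between 25986133 and 29981814 in each FeO library. Levels are given as CPM, counts per 1000000 counts after scaling with edgeR's TMM factors. Differences are given as log2 of Spns1 KO over FeO, so that a positive value is a higher level in Spns1 KO. Over the 500 genes that varied most, the first principal component carried 46.6% of the variance and separated the groups, with Spns1 KO libraries between 9.40 and 35.7 and FeO libraries between -40.1 and -5.02. FeO 4 stood apart on the second component, which carried 15.0% of the variance, at -37.9 against 5.43, -0.86 and 12.2 in FeO 2, FeO 3 and FeO 1. Proximal tubule markers were abundant in every library: the summed level of 25 of them was 26942 to 29289 CPM in Spns1 KO, 10219 to 32072 in FeO and 15411 to 24433 in WT. The summed level of 15 collecting duct markers was 529.8 to 747 CPM in Spns1 KO and 907 to 2342 in FeO. FeO 1 held the lowest level of many proximal tubule genes and the highest of many collecting duct genes, as the values below show.

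Of 15787 genes tested, 441 were higher in Spns1 KO (2.79%) and 599 were higher in FeO (3.79%), 6.59% together, at an adjusted p under 0.05 in edgeR's quasi-likelihood test and a log2 difference beyond 0.5. These genes are called higher in the text that follows. The median called gene differed 2.19-fold where Spns1 KO was higher and 2.22-fold where FeO was higher, and 42 and 64 genes differed more than 4-fold. All 4 Spns1 KO libraries lay above all 4 FeO libraries in 1312 genes, called or not (8.31%), and below them in 1497 (9.48%). The numbers of called genes depended on single libraries. Without Spns1 KO 1 they were 22 and 33, without Spns1 KO 2 they were 48 and 44, without Spns1 KO 3 they were 144 and 237, and without Spns1 KO 4 they were 281 and 307. Without FeO 1 they were 112 and 143, without FeO 3 they were 198 and 285, and without FeO 1 and FeO 4 together they were 198 and 128. All 1040 called genes kept their direction in each of the 8 fits that left out 1 library. They had been chosen for a difference in these same libraries, so their kept direction is no independent check. Of these genes, 47 (20 higher in Spns1 KO, 27 higher in FeO) were called in all 8 fits. For the larger gene groups below, the lowest and highest number of calls over these 8 fits is given after the count. Each count in a group is to be read beside the shares over all genes, 2.79% higher in Spns1 KO and 3.79% higher in FeO.

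**Figure D1:**
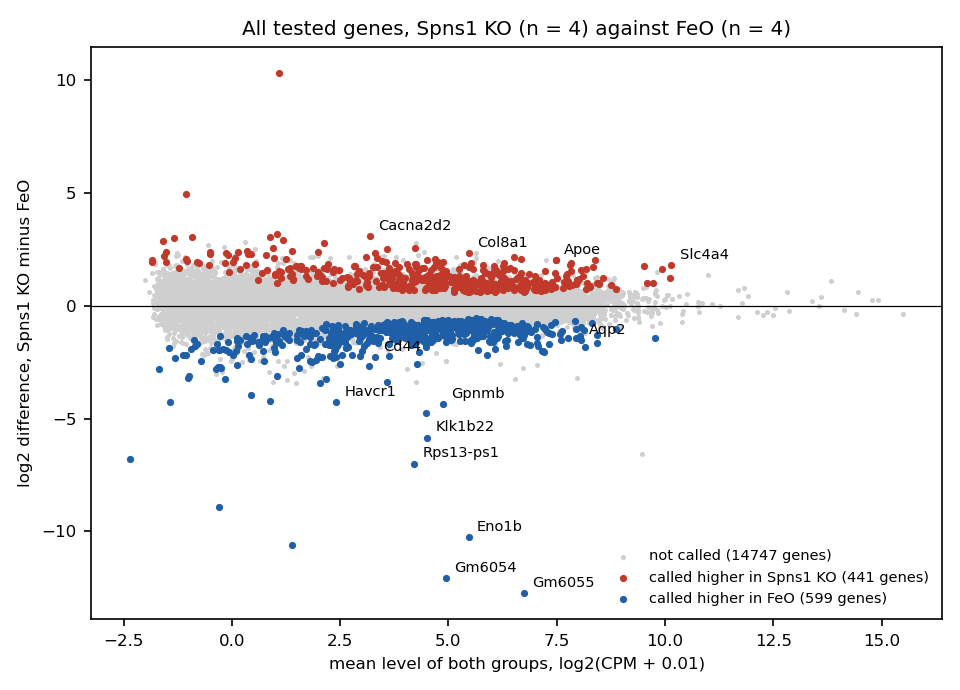
Log2 difference between Spns1 KO and FeO (vertical axis) against the mean level of both groups (horizontal axis, log2 of CPM + 0.01) for the 15787 tested genes, 1 point per gene, with red for the 441 genes called higher in Spns1 KO and blue for the 599 called higher in FeO. Most called genes lie within 4-fold. The fitted values of the lowest points depend on the fit's own prior count, because Spns1 KO libraries hold almost no counts of those genes. The same holds for the highest point, Gm9794, which had no counts in the FeO libraries.

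The WT libraries, which had no part in the calls, lay mostly on the Spns1 KO side for genes higher in FeO and on neither side for genes higher in Spns1 KO. Of the 599 genes called higher in FeO, the mean WT level was nearer to Spns1 KO for 466 (77.8%) and nearer to FeO for 133. Of the 441 genes called higher in Spns1 KO, WT was nearer to Spns1 KO for 215 (48.8%) and nearer to FeO for 226. Over all tested genes WT was nearer to Spns1 KO for 64.9%. WT lay between the groups for 396 of the genes higher in FeO and below both for 182. It lay between them for 259 of the genes higher in Spns1 KO, above both for 101 and below both for 81. The median gene higher in Spns1 KO was 0.64 above WT in Spns1 KO and fell by 0.65 below WT in FeO on the log2 scale. The median gene higher in FeO was at 0.94 against WT in FeO and at -0.26 in Spns1 KO.

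Spns1 itself (chromosome 7 from 126370060 to 126377450 of GRCm38) did not separate the groups (all coordinates are of that build). Its level was 37.4, 43.5, 35.3 and 58.4 CPM in Spns1 KO 1 to 4 and 58.03, 54.4, 38.2 and 44.9 CPM in the FeO libraries, and the ranges overlap almost wholly. The log2 difference was -0.16 (standard error 0.20, edgeR adjusted p = 0.635), and an exact two-sided permutation test of the log2 levels gave p = 0.4, where 0.0286 is the smallest the design allows. The counts span all exons of the gene in all captured cells, whereas the allele loses exon 3 in cells with megalin, so the level does not test the deletion.

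Several genes that define the proximal tubule were higher in Spns1 KO than in FeO, and none was lower. Of 25 tested markers 8 were called higher in Spns1 KO and 0 in FeO (0 to 6 and 0 when each library was left out in turn, 3 and 0 without FeO 1 and FeO 4). Their median log2 difference was 0.92, against 0.013 over all tested genes, and 22 of 25 were above 0. In bulk libraries of captured RNA such as these, fewer cells of a type, less RNA per cell and less labelling or capture of that RNA cannot be told apart. Against WT the median marker stood at 0.95 in Spns1 KO and 0.29 in FeO. Slc4a4 (chromosome 5 from 88886818 to 89239653), the basolateral sodium bicarbonate cotransporter, had 2186, 1616, 1955 and 1281 CPM in Spns1 KO 1 to 4 and 392.3, 492, 734 and 423 CPM in the FeO libraries. The lowest Spns1 KO library was well above the highest FeO library, and the difference was 3.45-fold (log2 difference 1.79, standard error 0.28, adjusted p = 0.0153, edgeR). Acsm2 (chromosome 7 from 119554340 to 119600690), a medium-chain acyl-CoA synthetase of tubule mitochondria, had 1367, 1130.3, 1009.8 and 1016 CPM in Spns1 KO and 137, 297, 416 and 482 CPM in FeO, with FeO 1 far below the rest (log2 difference 1.76, standard error 0.35, adjusted p = 0.0234). Cubn, the cubilin receptor for filtered proteins, had 342, 232, 286 and 375 CPM in Spns1 KO and 76.7, 134, 127 and 129 CPM in FeO (log2 difference 1.4, standard error 0.24, adjusted p = 0.0172). Lrp2, which encodes megalin and whose promoter drives the Cre, had 715, 945, 1039 and 1374 CPM in Spns1 KO and 385, 522, 499 and 617 CPM in FeO, again without overlap (log2 difference 1.01, standard error 0.25, adjusted p = 0.0432). The Lrp2 call ended in 7 of 8 fits with 1 library fewer, and that of Slc22a8 below in 6. The summed marker level given above overlapped between the groups. Pck1, the most abundant of the markers and the key enzyme of gluconeogenesis, had 3706, 6856, 4911 and 7594 CPM in Spns1 KO and 2139, 7605, 10077 and 4829 CPM in FeO and was not called (log2 difference -0.096, standard error 0.44, adjusted p = 0.907).

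Transporters of the proximal tubule were called in the same direction, in a list that overlaps the markers above. Slc4a4, Slc5a2, Slc5a12 and Slc22a8 were called genes of both lists. Of 54 tested solute and drug transporters 11 were called higher in Spns1 KO and 0 in FeO (1 to 12 and 0 to 1 when each library was left out, 5 and 0 without FeO 1 and FeO 4). The median was 0.66. This is a higher share than the 2.79% of all genes. Among sugar carriers, Slc5a2 (chromosome 7 from 128265657 to 128272430), the sodium glucose cotransporter SGLT2 of the early segment, had 268, 279, 232 and 373 CPM in Spns1 KO and 16.1, 88.2, 83.3 and 99.9 CPM in FeO. FeO 1 held by far the least, and even the highest FeO library was under every Spns1 KO library (log2 difference 2.00, standard error 0.45, adjusted p = 0.0329); 17.7% of its 31-base sequences also occur in BC017158. Slc2a2, the basolateral glucose carrier GLUT2, had 274, 227, 326 and 206 CPM in Spns1 KO and 62.9, 102, 149.8 and 70.1 CPM in FeO (log2 difference 1.43, standard error 0.29, adjusted p = 0.0247). Slc5a12, a lactate carrier, differed by 1.89 (adjusted p = 0.0382). Its call did not survive in 7 of the 8 leave-one-out fits.

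Among amino acid carriers, Slc7a8 had 348, 438, 357 and 607 CPM in Spns1 KO and 95.9, 136, 205 and 128 CPM in FeO, a 3.098-fold difference (log2 difference 1.63, standard error 0.28, adjusted p = 0.0172, edgeR). Slc7a12 had 153, 104, 83.98 and 251 CPM in Spns1 KO and 24.1, 20.2, 44.8 and 45.6 CPM in FeO (log2 difference 2.14, standard error 0.38, adjusted p = 0.019), with a wide gap between the groups. Slc7a9, the cystine carrier subunit, differed by 1.10 (adjusted p = 0.0417). Slc34a3 (chromosome 2 from 25228898 to 25234364), a sodium phosphate cotransporter, had 40.8, 40.4, 39.2 and 24.6 CPM in Spns1 KO and 3.08, 11.7, 12.3 and 8.497 CPM in FeO (log2 difference 2.03, standard error 0.37, adjusted p = 0.0191). FeO 1 was again lowest. Among carriers of organic anions and drugs, Slc22a8 (OAT3) had 458, 391, 396 and 369 CPM in Spns1 KO and 38.1, 123, 158 and 219 CPM in FeO (log2 difference 1.59, standard error 0.41, adjusted p = 0.0453). Abcc2, an export pump for conjugates, differed by 1.63 (adjusted p = 0.0273) and Abcb1a, a P-glycoprotein gene, by 1.44 (adjusted p = 0.0172). Counts of Abcb1a are uncertain, since 28.2% of its 31-base sequences recur elsewhere, mostly in Abcb1b.

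**Figure D2:**
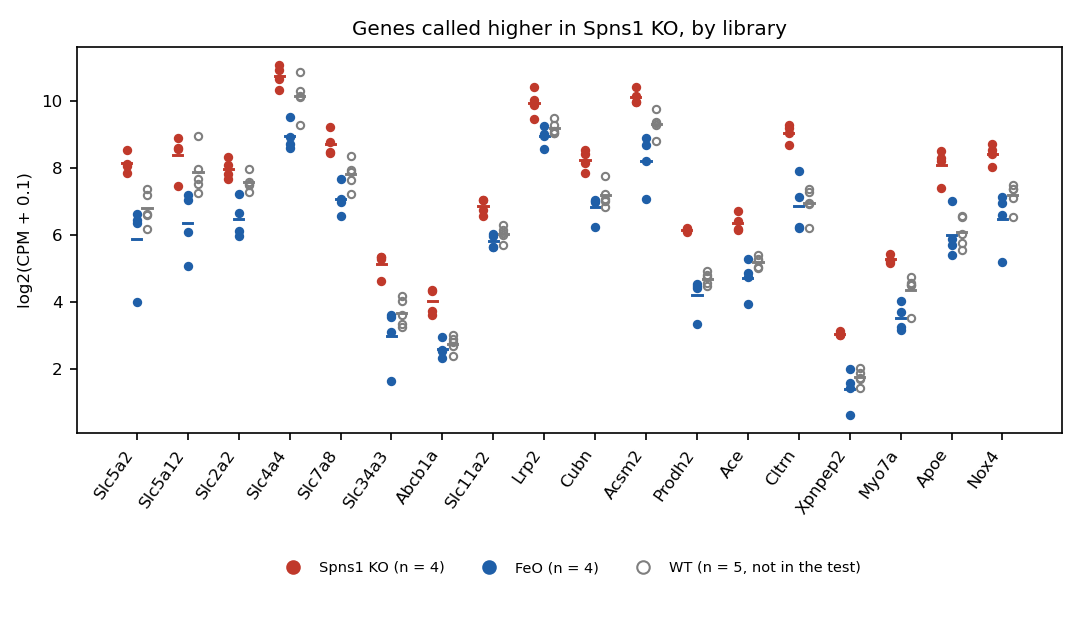
Level of 18 genes called higher in Spns1 KO (log2 of CPM + 0.1, vertical axis), 1 point per library, with Spns1 KO in red, FeO in blue and WT as open grey circles, and a bar at each mean. For every gene shown all 4 Spns1 KO libraries lie above all 4 FeO libraries, and the WT mean lies between the means of both.

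Several peptidases anchored in the brush border were also higher in Spns1 KO. Of 18 tested genes of this group and of the renin-angiotensin system 7 were called higher in Spns1 KO and 0 in FeO (0 to 7 and 0 to 1 when each library was left out, 4 and 0 without FeO 1 and FeO 4). The median was 0.70. Ace (chromosome 11 from 105967945 to 105989964), the angiotensin-converting enzyme, had 105, 71.7, 73.2 and 86.04 CPM in Spns1 KO and 15.3, 26.8, 29.5 and 39.3 CPM in FeO (log2 difference 1.6, standard error 0.27, adjusted p = 0.0172, edgeR). Cltrn (chromosome X from 164088830 to 164118860), collectrin, which brings amino acid carriers to the membrane, had 529, 620.5, 594 and 414 CPM in Spns1 KO and 76.3, 74.7, 140 and 241 CPM in FeO (log2 difference 2.02, standard error 0.37, adjusted p = 0.0191). The gap between the groups was wide for both genes, with FeO 4 the highest FeO library. Xpnpep2, an aminopeptidase, had 8.31, 8.09, 8.06 and 8.69 CPM in Spns1 KO and 1.46, 3.92, 2.94 and 2.64 CPM in FeO (log2 difference 1.6, standard error 0.29, adjusted p = 0.0191). The other calls were the dipeptidase Dpep1 (1.29), neprilysin (Mme, 1.01), aminopeptidase A (Enpep, 0.96) and Dpp4 (0.75), with adjusted p of 0.0329, 0.0475, 0.0271 and 0.0299.

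Of 20 genes of the brush border and its microvilli, 4 were called higher in Spns1 KO and 0 in FeO (0 to 3 and 0 when each library was left out, 0 and 0 without FeO 1 and FeO 4). The median was 0.41. They were Cubn, Lrp2, the protocadherin Cdhr5 (105, 102, 103 and 81.4 CPM against 36.3, 53.2, 57.9 and 59.9 CPM, log2 difference 0.92, standard error 0.19, adjusted p = 0.0277) and the myosin Myo7b (1.29, adjusted p = 0.042). The receptor genes Cubn and Lrp2 are also counted among the proximal tubule markers and the genes of megalin endocytosis. Among 40 genes of megalin endocytosis 4 were called higher in Spns1 KO and 1 in FeO (0 to 4 and 0 to 1 when each library was left out), and the median was -0.039. Lrp2, Cubn, Lrpap1 (0.83, adjusted p = 0.0358), the chaperone of megalin, and Appl2 (0.70, adjusted p = 0.0298), an adaptor of early endosomes, were the former. Tsg101, a sorting factor of late endosomes, was the latter (-0.72, adjusted p = 0.0487), and 26.1% of its 31-base sequences recur, mostly in Tsg101-ps.

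Among called genes that averaged 100 counts or more, did not overlap and had an established name, Cacna2d2 had the largest difference in favour of Spns1 KO. Cacna2d2 (chromosome 9 from 107399612 to 107529343), an auxiliary subunit of voltage-gated calcium channels, had 10.8, 22.8, 11.1 and 20 CPM in Spns1 KO and 2.17, 1.18, 2.97 and 1.39 CPM in FeO, 8.38-fold more in Spns1 KO (log2 difference 3.07, standard error 0.37, adjusted p = 0.00557, edgeR). Its WT mean of 1.395 CPM was near the FeO libraries. Col8a1 (chromosome 16 from 57624258 to 57754737), a collagen VIII chain, had 83.4, 62.6, 102 and 50.5 CPM in Spns1 KO and 9.63, 12.02, 23.4 and 14.03 CPM in FeO (log2 difference 2.34, standard error 0.31, adjusted p = 0.00878), with a WT mean of 42.04. Apoe and Nox4 were not among the 12 largest and were picked after their values were seen. Apoe (chromosome 7 from 19696109 to 19699188), an apolipoprotein, had 313, 297, 363 and 169 CPM in Spns1 KO and 42.9, 59.4, 51.8 and 129 CPM in FeO (log2 difference 2.01, standard error 0.37, adjusted p = 0.0191). Nox4, the NADPH oxidase of the tubule, had 418, 263, 371 and 341 CPM and 37.1, 98.1, 141 and 124 CPM (log2 difference 1.80, standard error 0.36, adjusted p = 0.0235). In both genes all Spns1 KO libraries were above all FeO libraries. Coagulation factor V (F5, 2.76), the growth factor midkine (Mdk, 2.54), Mroh7 (2.53), the inactive metalloprotease relative Adam11 (2.14) and collagen XIV (Col14a1, 2.09) were others of the 12, with adjusted p of 0.0132, 0.0191, 0.0172, 0.0106 and 0.027. Fabp1, the liver fatty acid-binding protein, at 5.69, 5.31, 11.99 and 3.43 CPM against 0.389, 0.498, 1.74 and 2.42 CPM, and Ppara, the nuclear receptor for fatty acids that drives it, at 138, 123, 127 and 269 CPM against 14.9, 83.2, 36.4 and 22.6 CPM, were both called (2.40 and 2.06, adjusted p = 0.0407 and 0.0383). Leaving out 1 library ended their calls in 6 and 7 of 8 fits. Ppara was higher still in WT, at a mean of 248 CPM.

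Cacna2d2 and Col8a1 were also among the 8 genes of smallest p on this side, with Spns1 KO libraries that spread widely. Other genes of that set had less spread. Prodh2 (chromosome 7 from 30493622 to 30513402), which breaks down hydroxyproline in kidney mitochondria, had 74.6, 72.5, 69.1 and 71.02 CPM in Spns1 KO and 10.1, 22.6, 21.4 and 23.4 CPM in FeO (log2 difference 1.89, standard error 0.25, adjusted p = 0.00839, edgeR). Gria3, a glutamate receptor subunit, had 20.7, 21.1, 18.8 and 27.9 CPM and 6.03, 7.41, 6.84 and 6.96 CPM (log2 difference 1.70, standard error 0.19, adjusted p = 0.00443). Myo7a, an unconventional myosin, had 43.2, 37.2, 36.3 and 38.7 CPM and 9.44, 16.2, 12.98 and 9.01 CPM (log2 difference 1.70, standard error 0.21, adjusted p = 0.00726). In all of these the Spns1 KO libraries lay within a narrow band well above FeO, and their calls held in all 8 fits that left out a library. Ggnbp1 (1.86, adjusted p = 0.00443), Ildr2 (1.45, adjusted p = 0.00879) and Arsb (1.42, adjusted p = 0.00879), the lysosomal arylsulfatase B, completed the set. Counts of Ggnbp1 and Arsb are uncertain, as 39.7% and 39.6% of their 31-base sequences recur in other genes, foremost Zbtb9 and Gm26527.

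On the FeO side, Gpnmb, Clec4d and Tlr13 were among the 12 genes of largest difference by the same rule, and Adam8 among the 8 of smallest p. Gpnmb (chromosome 6 from 49036546 to 49070929), a lysosomal glycoprotein of macrophages and stressed tubule cells, had 4.86, 0.899, 4.51 and 0.444 CPM in Spns1 KO and 40.8, 24.02, 95.3 and 61.9 CPM in FeO, and WT had a mean of 3.36. The lowest FeO library was well above the highest Spns1 KO library (log2 difference -4.36, standard error 0.72, adjusted p = 0.0172, edgeR), and the call held in all 8 fits that left out a library. Clec4d, a C-type lectin of myeloid cells, had 0.957, 0.344, 1.42 and 0.0701 CPM in Spns1 KO and 5.81, 3.395, 11.3 and 9.38 CPM in FeO (log2 difference -3.42, standard error 0.68, adjusted p = 0.0241). Tlr13, an endosomal receptor for bacterial RNA, had 1.49, 0.581, 0.967 and 1.26 CPM and 4.41, 4.92, 7.69 and 6.48 CPM (log2 difference -2.44, standard error 0.34, adjusted p = 0.0106). Adam8, a leukocyte metalloprotease, had 2.34, 1.797, 2.13 and 1.99 CPM and 6.91, 5.7, 7.996 and 6.52 CPM (log2 difference -1.71, standard error 0.23, adjusted p = 0.00879). These low levels did not overlap between the groups. Lgals3 (chromosome 14 from 47367751 to 47386160), galectin 3, had 19.3, 17.1, 32.98 and 15.5 CPM in Spns1 KO and 205, 42.6, 59.1 and 82.7 CPM in FeO (log2 difference -2.20, standard error 0.46, adjusted p = 0.0271). FeO 1 was far above the others in that gene. Mmp19, a matrix metalloprotease, differed by -2.66 (adjusted p = 0.0132), with 26.7% of its 31-base sequences shared, mostly with Tmem198b.

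The listed general markers of macrophages and leukocytes showed no called difference. Other leukocyte genes, picked after their values were seen, were called in both directions. Cd53 (-2.19) and Cd84 (-2.02) were called higher in FeO, and Cd3d (2.09) and Trbc2 (2.22) in Spns1 KO. Their calls were kept in 6, 6, 2 and 3 of the 8 fits that left out a library. Of the 22 listed markers tested, 0 were called in either direction and 6 were above 0. Their median was -0.27 (-0.39 to -0.11 when each library was left out). Their summed level was 119 to 180.2 CPM in Spns1 KO, 130.3 to 267 CPM in FeO and 76.8 to 100.5 CPM in WT, and none of the 22 was at 0 in all 8 libraries. Csf1r, the receptor that macrophages need, had 54.4, 44.1, 51.3 and 49.9 CPM in Spns1 KO and 54.01, 51.4, 66.02 and 44.8 CPM in FeO, a log2 difference of -0.12 (95% confidence interval -0.48 to 0.25). Lyz2, lysozyme of myeloid cells, had 19.6, 7.27, 35.1 and 3.64 CPM in Spns1 KO and 45.3, 17.3, 55.5 and 87.2 CPM in FeO and was not called (log2 difference -1.65, standard error 0.64, adjusted p = 0.128), and 32.8% of its 31-base sequences are shared with Lyz1. What part these cells had in the levels of Gpnmb, Clec4d and Lgals3 was not tested.

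**Figure D3:**
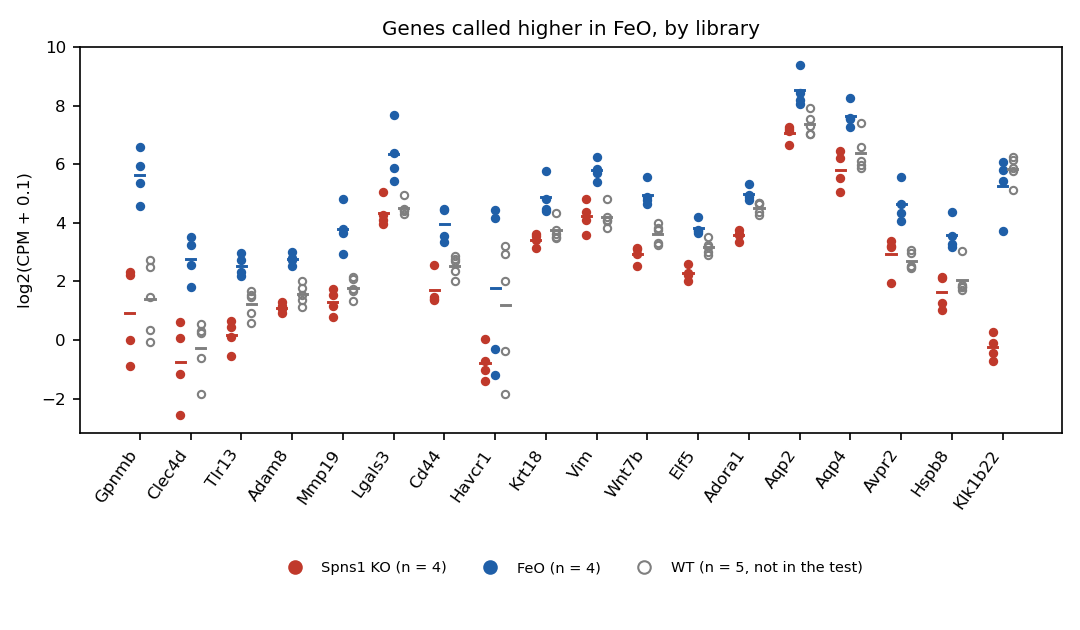
Level of 18 genes called higher in FeO (log2 of CPM + 0.1, vertical axis), 1 point per library, with Spns1 KO in red, FeO in blue and WT as open grey circles, and a bar at each mean. All 4 FeO libraries lie above all 4 Spns1 KO libraries except for Havcr1, which is high in FeO 3 and FeO 4 and low in FeO 1 and FeO 2.

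Some markers of tubule injury and repair were higher in FeO. Of 33 tested, 0 were called higher in Spns1 KO and 6 in FeO (0 to 3 and 0 to 6 when each library was left out, 2 and 2 without FeO 1 and FeO 4). The median was -0.38 and 11 of 33 were above 0, while 3.79% of all genes were called higher in FeO. The summed level of the list overlapped between the groups. It was 2086.7 to 2486.5 CPM in Spns1 KO, 1205 to 2567 in FeO and 1096 to 1508 in WT. Cd44 (chromosome 2 from 102811141 to 102901665), the hyaluronan receptor of regenerating epithelium, had 2.69, 2.54, 5.77 and 2.48 CPM in Spns1 KO and 22.2, 11.7, 21.6 and 10.2 CPM in FeO (log2 difference -2.29, standard error 0.37, adjusted p = 0.0155, edgeR). The keratin Krt18 had 12.3, 10.5, 11.7 and 8.64 CPM and 54.2, 22.3, 20.9 and 28.3 CPM (log2 difference -1.54, standard error 0.30, adjusted p = 0.0222), with no overlap, and its partner Krt8 differed by -1.01 (adjusted p = 0.0477; 36% of its 31-base sequences recur, mostly in Krt8-ps). Anxa1, annexin A1, and Il34, a ligand of Csf1r, differed by -1.12 and -1.08 (adjusted p = 0.0378 and 0.0347). Havcr1 (chromosome 11 from 46735080 to 46779578), kidney injury molecule 1, had 0.514, 0.396, 0.935 and 0.28 CPM in Spns1 KO and 0.714, 0.343, 17.7 and 21.6 CPM in FeO, so that only FeO 3 and FeO 4 were above the Spns1 KO libraries. Its WT libraries were uneven as well, at 9.05, 7.604, 0.18, 0.665 and 3.94 CPM in WT 1 to 5. The call for Havcr1 (log2 difference -4.26, standard error 1.13, adjusted p = 0.0485) ended in 7 of 8 fits with 1 library fewer. Vim, vimentin, from the matrix list, had 20.8, 16.9, 28.1 and 12.1 CPM in Spns1 KO and 76.1, 42.3, 57.1 and 52.4 CPM in FeO (log2 difference -1.55, standard error 0.27, adjusted p = 0.0172).

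Some genes of the collecting duct were higher in FeO. Of 15 tested markers 4 were called higher in FeO and 0 in Spns1 KO (0 to 7 and 0 when each library was left out, 0 and 0 without FeO 1 and FeO 4), 1 of 15 was above 0 and the median was -0.80. Against WT the median marker stood at -0.25 in Spns1 KO and 0.65 in FeO. Their summed level was 529.8 to 747 CPM in Spns1 KO, 907 to 2342 in FeO and 615 to 991 in WT. Aqp2 (chromosome 15 from 99579055 to 99584547), the vasopressin-regulated water channel, had 153, 149, 141 and 102 CPM in Spns1 KO and 678, 266, 292 and 347 CPM in FeO (log2 difference -1.54, standard error 0.31, adjusted p = 0.0238, edgeR). Aqp4, its basolateral counterpart, had 88.1, 46.1, 73.8 and 32.8 CPM and 306, 193, 153 and 187 CPM (log2 difference -1.80, standard error 0.33, adjusted p = 0.0191). FeO 1 was highest for both. Avpr2, the vasopressin receptor, had 10.4, 9.14, 8.96 and 3.78 CPM and 47.7, 16.6, 20.01 and 24.7 CPM (log2 difference -1.75, standard error 0.38, adjusted p = 0.0302), but 76.2% of its 31-base sequences also occur in Arhgap4. Gata3 differed by -0.78 (adjusted p = 0.0489).

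The genes of smallest p on the FeO side included Wnt7b, Elf5, Adora1, Litaf and Mrps6, none of them in the marker list. Wnt7b (chromosome 15 from 85535437 to 85582473), a secreted ligand known from the duct epithelium, had 8.43, 7.61, 8.74 and 5.68 CPM in Spns1 KO and 46.8, 29.4, 24.7 and 27.4 CPM in FeO (log2 difference -2.08, standard error 0.25, adjusted p = 0.0048, edgeR). Elf5, a transcription factor of principal cells, had 4.59, 4.84, 3.97 and 5.91 CPM and 18.4, 13.3, 12.6 and 13.04 CPM (log2 difference -1.57, standard error 0.22, adjusted p = 0.00963). Adora1, the adenosine A1 receptor, had 12.2, 10.02, 13.3 and 11.96 CPM and 40.2, 29.5, 27.2 and 30.7 CPM (log2 difference -1.42, standard error 0.19, adjusted p = 0.00839); 18.6% of its 31-base sequences recur, mostly in Mybph. Litaf, a protein of late endosomes, had 33.8, 41.97, 35.9 and 33.9 CPM in Spns1 KO and 176, 102, 118 and 102 CPM in FeO (log2 difference -1.77, standard error 0.21, adjusted p = 0.0048), and the mitochondrial ribosome gene Mrps6 had 57.1, 59.2, 72.2 and 41.4 CPM and 350.4, 166, 193 and 216 CPM (log2 difference -2.01, standard error 0.27, adjusted p = 0.00879; 18.4% shared, with Gm49711). All of these were free of overlap between the groups, and their calls held in all 8 fits that left out a library. Of 9 podocyte markers, 2 were called higher in FeO, Ptpro (-1.17, adjusted p = 0.0447) among them, with 0 to 3 calls when each library was left out and 0 without FeO 1 and FeO 4. The podocyte median was -0.455, and 4 of 9 were above 0. Their summed level was 408 to 483 CPM in Spns1 KO and 418 to 831 in FeO. Of 15 markers of the loop of Henle and distal nephron, Ptger3, a prostaglandin receptor, was called higher in FeO (-1.42, adjusted p = 0.0479). It had 94.1, 40.6, 57.7 and 34.7 CPM in Spns1 KO and 229, 74.4, 163 and 142 CPM in FeO, where FeO 2 lay inside the Spns1 KO range. The median of those 15 markers was -0.39, and 4 were above 0. The part that the mixture of nephron segments had in the other differences was not tested.

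**Figure D4:**
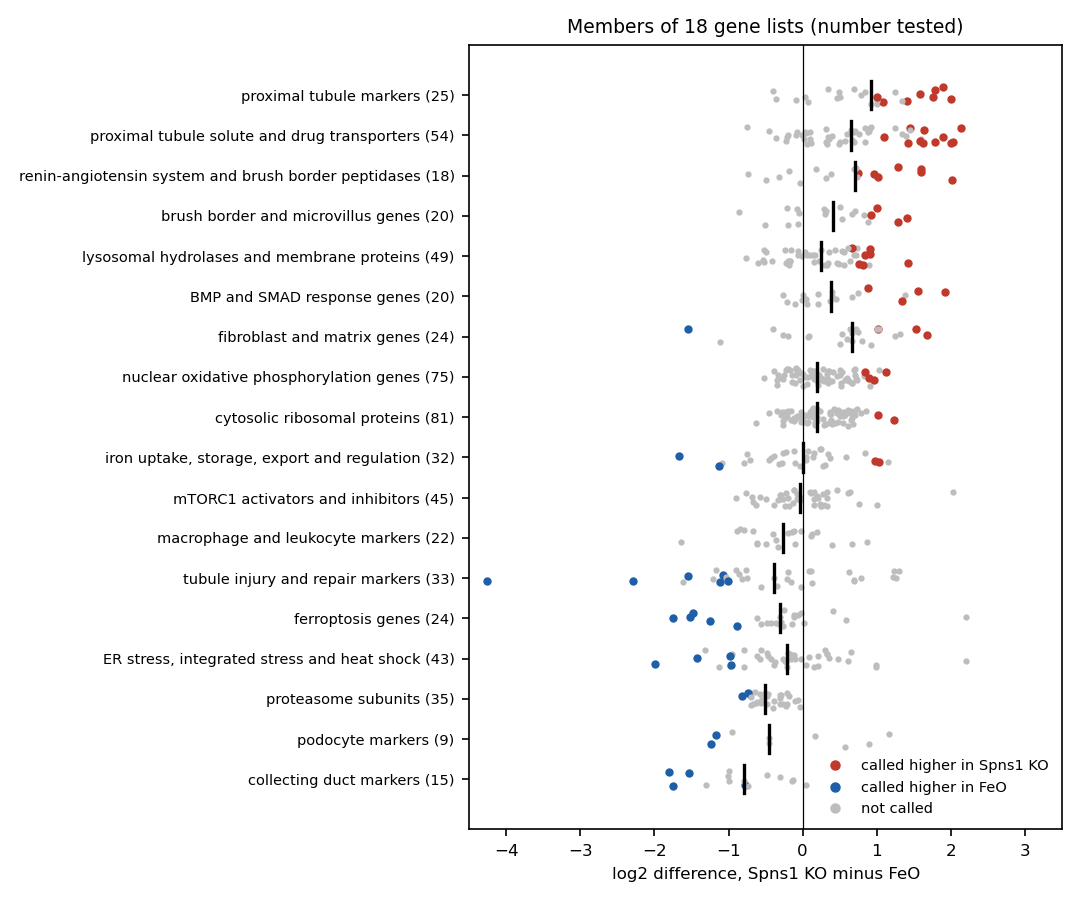
Log2 difference between Spns1 KO and FeO (horizontal axis) for the tested members of 18 gene lists, 1 point per gene, with red for genes called higher in Spns1 KO, blue for genes called higher in FeO, grey for the rest, and a black bar at each list's median. Medians run from -0.80 for collecting duct markers to 0.92 for proximal tubule markers.

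Iron-handling genes differed little as a group. Of 32 tested, 2 were called higher in Spns1 KO and 2 in FeO (0 to 4 and 0 to 2 when each library was left out, 1 and 1 without FeO 1 and FeO 4), 16 were above 0 and the median was 0.00075. For storage, the ferritin heavy chain Fth1 had 1483, 2088, 1895 and 883 CPM in Spns1 KO and 1661, 1551, 2655 and 1853 CPM in FeO, a log2 difference of -0.28 (95% confidence interval -0.96 to 0.40). The light chain Ftl1 had 1739.5, 2248, 2446 and 939.8 CPM and 1817, 1596, 1904 and 1305 CPM, a difference of 0.16 (-0.52 to 0.83), and 64.1% of its 31-base sequences recur, mostly in Ftl1-ps1. In both genes Spns1 KO 4 was the lowest of the 8 libraries and the groups overlapped. For uptake and export, the transferrin receptor Tfrc was at -0.11 (-0.81 to 0.58) and ferroportin, Slc40a1, at -0.10 (-0.78 to 0.58). Ncoa4, which carries ferritin to the lysosome, had 378, 274, 372 and 201 CPM and 672, 454, 662 and 335 CPM (log2 difference -0.79, standard error 0.29, adjusted p = 0.11). None of these was called, and the intervals allow differences of up to about 1 on the log2 scale in Fth1 and Tfrc.

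The called iron genes were Slc11a2, Steap2, Steap3 and Steap4, 4 of 32 beside 6.59% of all genes. Slc11a2 (chromosome 15 from 100387898 to 100425072), which encodes DMT1, had 133, 132, 108 and 96.3 CPM in Spns1 KO and 50.2, 63.05, 66.2 and 50.4 CPM in FeO, with every Spns1 KO library above every FeO library and WT at a mean of 66.9 (log2 difference 1.03, standard error 0.18, adjusted p = 0.018, edgeR). Steap2 (chromosome 5 from 5664829 to 5694578), a metalloreductase that reduces ferric iron, had 247, 172, 215 and 166 CPM and 85.1, 102, 144 and 76.98 CPM (log2 difference 0.97, standard error 0.24, adjusted p = 0.0394). Its relatives went the other way. Steap4 had 7.899, 2.405, 6.71 and 2.64 CPM in Spns1 KO and 22.2, 13.3, 12.9 and 14.4 CPM in FeO (log2 difference -1.67, standard error 0.39, adjusted p = 0.0378). Steap3 had 14, 10.2, 11.3 and 8.29 CPM and 23.03, 23.2, 36.8 and 13.1 CPM (log2 difference -1.13, standard error 0.29, adjusted p = 0.0456), where FeO 4 fell among the Spns1 KO libraries. With 1 library fewer, the calls of Slc11a2, Steap2, Steap4 and Steap3 ended in 2, 6, 6 and 7 of 8 fits. Slc22a17, the receptor of lipocalin 2, lay above FeO in all Spns1 KO libraries, at 26.7, 28.9, 22.9 and 23.5 CPM against 8.82, 7.04, 8.81 and 21.4 CPM, and missed the limit (adjusted p = 0.0568).

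**Figure D5:**
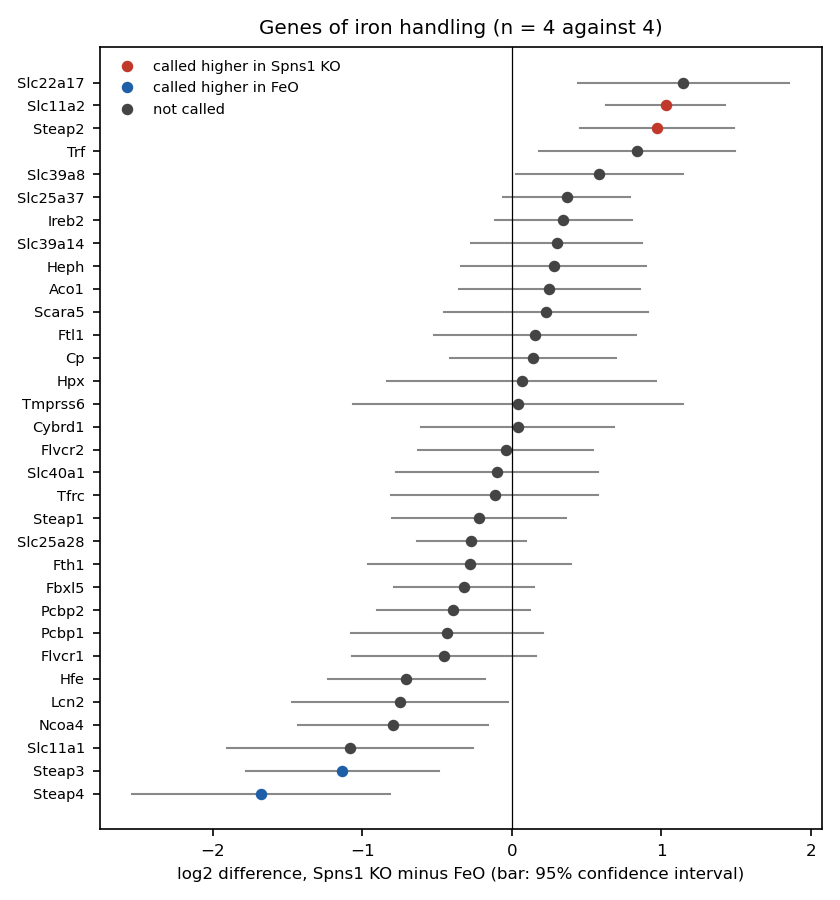
Log2 difference between Spns1 KO and FeO (horizontal axis) for 32 genes of iron handling, 1 point per gene with its 95% confidence interval, in red and blue where the gene was called. The intervals of Fth1, Ftl1, Tfrc and Slc40a1 include 0, and those of Slc11a2 and Steap2 on one side and of Steap3 and Steap4 on the other do not.

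Bone morphogenetic proteins (BMPs) signal through SMAD proteins and are known for raising hepcidin in the iron-loaded liver. Of 20 tested genes of this pathway 4 were called higher in Spns1 KO and 0 in FeO (0 to 5 and 0 when each library was left out, 1 and 0 without FeO 1 and FeO 4). The median was 0.38, and 2.79% of all genes were called higher in Spns1 KO. The ligand Bmp7 (chromosome 2 from 172868012 to 172940321), made by distal tubules and podocytes, had 34.7, 37.8, 30.9 and 54.3 CPM in Spns1 KO and 19.9, 18.97, 18.97 and 27.7 CPM in FeO (log2 difference 0.88, standard error 0.22, adjusted p = 0.0407, edgeR). Among targets, Id1 (chromosome 2 from 152736251 to 152737410), an inhibitor of differentiation, had 13.6, 23.5, 20.3 and 17.1 CPM and 2.47, 3.36, 3.98 and 9.93 CPM (log2 difference 1.92, standard error 0.40, adjusted p = 0.027). Id3 had 28.9, 51.1, 37.3 and 16.7 CPM and 9.76, 10.3, 11.8 and 20.9 CPM (log2 difference 1.34, standard error 0.35, adjusted p = 0.0465), where FeO 4 was above Spns1 KO 4. Smad9, a receptor-regulated SMAD, had 4.01, 4.73, 3.97 and 6.84 CPM and 1.82, 2.06, 1.198 and 1.54 CPM (log2 difference 1.56, standard error 0.29, adjusted p = 0.0198), with WT higher than both at a mean of 6.099. FeO 4 was the highest FeO library in Bmp7, Id1 and Id3.

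For the lists that follow, 2.79% of all genes were called higher in Spns1 KO and 3.79% in FeO. Ferroptosis is cell death by iron-dependent lipid peroxidation. Of 24 tested genes 5 were called higher in FeO and 0 in Spns1 KO (0 to 4 and 0 when each library was left out, 2 and 0 without FeO 1 and FeO 4). The median was -0.30. Several of them are known as protective. Scd2, which makes monounsaturated fatty acids, had 122, 101, 91.8 and 88 CPM in Spns1 KO and 479, 197, 237 and 245 CPM in FeO (log2 difference -1.52, standard error 0.28, adjusted p = 0.0196, edgeR), with FeO 1 highest as for Aqp2. The acyltransferases Mboat1 and Mboat2 differed by -1.25 and -0.88 (adjusted p = 0.0428 and 0.0394). Slc7a11, the cystine carrier that feeds glutathione synthesis, had 1.66, 1.98, 2.55 and 4.42 CPM and 6.16, 4.33, 9.503 and 9.56 CPM (log2 difference -1.48, standard error 0.37, adjusted p = 0.0429), with a WT mean of 9.02. Ptgs2, cyclooxygenase 2 and a marker of the process, had 1.63, 1.37, 1.39 and 2.45 CPM and 2.4, 7.44, 9.58 and 3.59 CPM (log2 difference -1.74, standard error 0.43, adjusted p = 0.0412), where FeO 1 lay inside the Spns1 KO range. Of 36 antioxidant and glutathione enzymes catalase (Cat) was called higher in Spns1 KO, at 1198, 1196, 1194 and 901 CPM against 411, 414, 755 and 656 CPM (log2 difference 1.01, standard error 0.26, adjusted p = 0.0454). Of 28 genes of iron-sulfur cluster assembly Nubp2 was called higher in FeO (-0.87, adjusted p = 0.0466), and of 21 metallothioneins and zinc transporters Slc39a5 was called higher in Spns1 KO (1.38, adjusted p = 0.0395) and Slc39a6 in FeO (-0.87, adjusted p = 0.0487).

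None of 19 genes of heme synthesis and breakdown was called. Hmox1, heme oxygenase 1, had 44.2, 931, 77.4 and 56.2 CPM in Spns1 KO and 83.8, 213, 288 and 59.7 CPM in FeO, where Spns1 KO 2 stood far above every other library (log2 difference 0.78, standard error 0.91, adjusted p = 0.606, edgeR). Without that library the difference was -1.45, against 0.78 with it. The mitochondrial carrier Slc25a39 was at -0.12 (adjusted p = 0.786). Among iron-dependent oxygenases, Tet1, which oxidizes methylcytosine in DNA, had 9.099, 12.7, 7.19 and 14.6 CPM in Spns1 KO and 2.01, 4.42, 3.28 and 3.003 CPM in FeO (log2 difference 1.78, standard error 0.31, adjusted p = 0.0172), with a WT mean of 11.6. It was the single call among 43 tested, beside 2.79% of all genes called higher in Spns1 KO.

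Several lysosomal genes were higher in Spns1 KO. The shares over all genes were 2.79% called higher in Spns1 KO and 3.79% in FeO. Of 49 tested hydrolases and membrane proteins 7 were called higher in Spns1 KO and 0 in FeO (1 to 9 and 0 to 1 when each library was left out, 1 and 0 without FeO 1 and FeO 4), 32 were above 0 and the median was 0.25. Arsb (chromosome 13 from 93771630 to 93943016) had 106, 75.1, 97.4 and 77.7 CPM in Spns1 KO and 29.4, 28.1, 34.6 and 40.9 CPM in FeO (log2 difference 1.42, standard error 0.19, adjusted p = 0.00879, edgeR). Slc17a5, the sialic acid exporter, had 96.7, 90.8, 94.2 and 81.4 CPM and 44.6, 37.5, 55.4 and 55.4 CPM (log2 difference 0.91, standard error 0.17, adjusted p = 0.0202). Man2b1, the lysosomal alpha-mannosidase, had 111, 105, 93.7 and 105 CPM and 59.8, 73.3, 53.2 and 58.6 CPM (log2 difference 0.76, standard error 0.16, adjusted p = 0.0289). The bands were narrow and did not overlap. Aga (0.91), Ctsa (0.84), Tpp1 (0.82) and the calcium channel gene Mcoln1 (0.67) were the other calls, with adjusted p of 0.0314, 0.039, 0.036 and 0.0435. For the proton pump of the lysosome, 2 of 20 V-ATPase subunits, Atp6v0e (34.03, 34.1, 45.7 and 29.04 CPM against 126, 61.2, 89.9 and 80.5 CPM, log2 difference -1.32, standard error 0.23, adjusted p = 0.0184) and Tcirg1 (-0.70, adjusted p = 0.0399), were called higher in FeO and none in Spns1 KO (0 to 2 and 0 when each library was left out), with a median of -0.21.

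Few genes of the next lists were called, beside 2.79% of all genes higher in Spns1 KO and 3.79% in FeO. Among 38 autophagy genes Atg4b was called higher in FeO (-0.58, edgeR adjusted p = 0.048). No gene among 45 of the mTORC1 pathway was called, and the list's median was -0.038; Mtor was at 0.61 and Prkaa2 at 0.64 (adjusted p = 0.102 and 0.136, edgeR). Of 47 phosphoinositide kinases and phosphatases Pik3c2a (0.69, adjusted p = 0.0394) and Pikfyve (0.80, adjusted p = 0.0469), which makes a lipid of late endosomes, were called higher in Spns1 KO (0 to 1 when each library was left out). Pikfyve had 125, 136, 125 and 175 CPM in Spns1 KO, 61.7, 105, 84.6 and 71.2 CPM in FeO and a mean of 205 in WT. In the family of Spns transporters none was called: Spns2 was at -0.049 (95% confidence interval -0.46 to 0.36) and Mfsd1 at 0.81 (adjusted p = 0.051).

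All 35 tested proteasome subunits had log2 differences below 0, with a median of -0.50 (-0.60 to -0.38 when each library was left out), and 2 were called higher in FeO (0 to 3 when each library was left out, 0 without FeO 1 and FeO 4). Psma7 had 44.2, 55.2, 55 and 36.9 CPM in Spns1 KO and 88.4, 66.8, 92.7 and 72.4 CPM in FeO (log2 difference -0.74, standard error 0.19, adjusted p = 0.0438, edgeR). Psmb2 had 36.3, 38.95, 41.5 and 26.4 CPM and 80.8, 51.3, 72.9 and 47.8 CPM (log2 difference -0.82, standard error 0.22, adjusted p = 0.0483). Against WT the median subunit stood at 0.45 in Spns1 KO and 1.00 in FeO. The share of all genes called higher in FeO was 3.79%. Of 43 genes of endoplasmic reticulum stress, integrated stress and heat shock, 4 were called higher in FeO and 0 in Spns1 KO (0 to 7 and 0 when each library was left out, 0 and 0 without FeO 1 and FeO 4). The median was -0.21. Xbp1, the transcription factor of the unfolded protein response, had 62.2, 78.5, 93.3 and 71.97 CPM in Spns1 KO and 173, 178, 128 and 124 CPM in FeO (log2 difference -0.98, standard error 0.20, adjusted p = 0.0257), with no overlap. The small chaperone Hspb8 had 2.31, 4.33, 4.26 and 1.92 CPM and 20.7, 9.69, 8.96 and 11.5 CPM (log2 difference -1.99, standard error 0.36, adjusted p = 0.0191). Manf (-0.96) and Sdf2l1 (-1.43), both proteins of the endoplasmic reticulum, were called as well (adjusted p = 0.0444 and 0.0469).

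In energy metabolism few genes were called, in both directions, beside 2.79% of all genes higher in Spns1 KO and 3.79% in FeO. Among 34 genes of glycolysis, gluconeogenesis and fructose use, Slc2a2 and the gluconeogenic enzyme Fbp1 (308, 341, 348 and 188 CPM against 94.1, 142, 184 and 139.6 CPM, log2 difference 1.08, standard error 0.26, adjusted p = 0.0394) were called higher in Spns1 KO. The glucose carrier Slc2a1 (55.3, 65.1, 59.7 and 69.4 CPM in Spns1 KO and 214, 158, 115 and 125 CPM in FeO, log2 difference -1.30, standard error 0.22, adjusted p = 0.0172, edgeR), hexokinase 1 (Hk1, -1.24), Pfkp (-1.21) and Aldoc (-1.03), which act in glycolysis, were called higher in FeO (adjusted p = 0.0378, 0.0262 and 0.0341 for the last 3). FeO 1 was the highest library for Slc2a1 and Hk1, as for Aqp2. These 2 and 4 calls became 0 to 2 and 0 to 5 when each library was left out. Among 35 genes of the citric acid cycle and pyruvate use, Idh3b (0.83) and Sdha (0.90) were called higher in Spns1 KO (adjusted p = 0.0394 and 0.0496) and Got1, an aspartate aminotransferase, in FeO, at 165, 141, 177 and 178 CPM against 851, 369, 508 and 373 CPM (log2 difference -1.67, standard error 0.28, adjusted p = 0.0172). Leaving out each library gave 0 to 2 and 0 to 2 calls. Of 75 nuclear genes of oxidative phosphorylation 4 were called higher in Spns1 KO and 0 in FeO (0 to 15 and 0 when each library was left out), Sdha and Ndufs1 (0.85, adjusted p = 0.0378) among them. The others, Cox7c (1.12) and Ndufa13 (0.97), share 24.5% and 33.2% of their 31-base sequences with other genes. Of 42 genes of fatty acid oxidation and PPAR alpha, Ppara and Fabp1 were called higher in Spns1 KO and Ucp2 and Cpt1b in FeO (0 to 1 and 0 to 2 when each library was left out). Ucp2, an inner membrane carrier, was at 47.1, 71.4, 78.6 and 57.7 CPM in Spns1 KO and 156, 103, 375 and 168 CPM in FeO (log2 difference -1.65, standard error 0.36, adjusted p = 0.0302), and Cpt1b, the muscle form of carnitine palmitoyltransferase, differed by -1.28 (adjusted p = 0.0234; 79.7% of its 31-base sequences lie in the readthrough gene Gm44502). In cholesterol metabolism Fdft1 (-0.81), Ebp (-0.93) and Abcg1 (-0.87) were called higher in FeO (adjusted p = 0.0208, 0.0416 and 0.0444) among 32 tested (0 to 3 when each library was left out).

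Some complement and matrix genes were higher in Spns1 KO, beside 2.79% of all genes tested. Of 30 complement, chemokine and acute phase genes, 3 were called higher in Spns1 KO and 0 in FeO (0 to 3 and 0 when each library was left out). Among these, C2 (1.91, adjusted p = 0.0172, edgeR) and Cfb (1.35, adjusted p = 0.0394) lie side by side and share 44.4% and 75.5% of their 31-base sequences with other genes, foremost the readthrough gene Gm20547. Among 24 fibroblast and matrix genes 19 were above 0, with a median of 0.67, and 3 were called higher in Spns1 KO and 1, Vim, in FeO (0 to 8 and 0 to 2 when each library was left out, 9 and 0 without FeO 1 and FeO 4). Fibronectin (Fn1) had 49.8, 29.6, 59 and 43.3 CPM in Spns1 KO and 20.6, 8.75, 9.23 and 24.4 CPM in FeO (log2 difference 1.53, standard error 0.35, adjusted p = 0.0362), and Fbln1 (1.68) and Col1a2 (1.02) were the other calls higher in Spns1 KO (adjusted p = 0.04 and 0.0487). The summed level of the list was 948 to 1088 CPM in Spns1 KO and 578 to 1044 in FeO. Of 38 interferon-stimulated genes 31 were above 0, with a median of 0.47; Rsad2 (1.38, adjusted p = 0.035) and Xaf1 (1.47, adjusted p = 0.0374) were called higher in Spns1 KO (0 to 8 when each library was left out). H2-T23 was the call among 18 genes of antigen presentation, at 34.7, 44.6, 34.6 and 35.6 CPM against 11.2, 9.75, 11.9 and 27.9 CPM (log2 difference 1.30, standard error 0.31, adjusted p = 0.0394), with 25.8% of its 31-base sequences shared.

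Some genes of steroid and drug metabolism were higher in FeO. Of 30 Cyp4, Cyp2 and related cytochrome P450 genes 6 were called higher in FeO and 0 in Spns1 KO (0 to 6 and 0 to 1 when each library was left out, 3 and 0 without FeO 1 and FeO 4), although the median was 0.023. Cyp2e1, which oxidizes ethanol and small drugs, had 102, 21.6, 70.99 and 31.9 CPM in Spns1 KO and 251, 141, 364 and 159.8 CPM in FeO (log2 difference -2.01, standard error 0.48, adjusted p = 0.0384, edgeR). Cyp7b1 (-1.61), Cyp4v3 (-1.37) and Cyp4f15 (-1.95) had adjusted p of 0.0195, 0.0248 and 0.0264. Cyp2b10 (-3.14) and Cyp2d9 (-1.71) were called too (adjusted p = 0.0263 and 0.0454), with 19.4% and 34.8% of their 31-base sequences in sister genes. Among 26 kallikreins and androgen-linked genes, the prolactin receptor Prlr (1.29, adjusted p = 0.0314), Slc7a12 and Acsm2 were called higher in Spns1 KO, and Klk1b22, Cyp2e1 and Aoc1, the histamine-degrading diamine oxidase (3.99, 3.33, 2.29 and 0.958 CPM against 18.2, 7.63, 6.03 and 7.398 CPM, log2 difference -1.89, standard error 0.47, adjusted p = 0.0411), in FeO. Leaving out each library gave 0 to 4 and 1 to 3 calls. Klk1b22 (chromosome 7 from 44112673 to 44116922) had 0.643, 1.11, 0.516 and 0.841 CPM in Spns1 KO, 55.4, 12.96, 43.4 and 67.3 CPM in FeO and 71.5, 75.3, 53.9, 34.9 and 57.8 CPM in WT 1 to 5, so that Spns1 KO stood apart from both other groups (log2 difference -5.84, standard error 0.51, adjusted p = 0.00056). Its counts are uncertain, since 41.1% of its 31-base sequences recur in other kallikrein genes.

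Slc39a2, a zinc carrier, had 2.06, 1.74, 2.22 and 2.29 CPM in Spns1 KO and 23.9, 24.8, 2.63 and 35.5 CPM in FeO, where FeO 3 was only just above Spns1 KO (log2 difference -3.38, standard error 0.59, adjusted p = 0.0172, edgeR). Its WT libraries were at 24.4, 25.2, 23.5, 42.7 and 2.23 CPM, and there too a single library, WT 5, was low. More genes with large differences were low in level. The melanocortin receptor partner Mrap (-2.59), the aldehyde dehydrogenase Aldh3a1 (-2.50), apolipoprotein A1 (Apoa1, -2.42) and Catspere2 (-2.33; 23.2% shared, mostly with Catspere1) had adjusted p of 0.0446, 0.0151, 0.029 and 0.0196, and no library of theirs exceeded 18.9 CPM.

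Several near-identical gene copies were counted in FeO and scarcely in Spns1 KO. The sequences below are shown because the copies differ from their parent genes at few coding bases. The reads over those bases were not examined. The counting tool in the submitters' processing notes, kallisto, divides reads that match more than 1 transcript by likelihood. Within the aligned coding sequence, only reads over a differing base tell such copies apart. Reads that reach beyond that sequence can tell them apart as well. Gm6055 (chromosome 14 from 48079375 to 48079752, annotated as a processed pseudogene) matches the coding sequence of Map1lc3b (LC3B, an autophagosome protein, chromosome 8 from 121590361 to 121598760) at 374 of 375 bases. Gm6054 (chromosome 5 from 147408982 to 147409359, also a processed pseudogene) matches it at 368 of 375. The lines give coding bases 204 to 233 of Map1lc3b and the aligned bases of the copies, from GRCm38 with the GENCODE M21 transcripts, 5′ to 3′ on the strand of the gene, with a capital where any of the 3 differ.
Map1lc3b, chr8:121596596-121596625, plus strand: acGgcgcttgcagctcaatgctaaccaagc
Gm6055, chr14:48079520-48079549, minus strand: acAgcgcttgcagctcaatgctaaccaagc
Gm6054, chr5:147409185-147409214, plus strand: acGgcgcttgcagctcaatgctaaccaagc
The stretch holds the single substitution of Gm6055, G206A, counted from the first coding base with the Map1lc3b base first. Bases 111 to 140 hold 2 of the 7 substitutions of Gm6054, G118T and C135G.
Map1lc3b, chr8:121596000-121596029, plus strand: atacaagGgggagaagcagctgccCgtcct
Gm6055, chr14:48079613-48079642, minus strand: atacaagGgggagaagcagctgccCgtcct
Gm6054, chr5:147409092-147409121, plus strand: atacaagTgggagaagcagctgccGgtcct

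Gm6055 had 201, 237, 288 and 131 CPM in FeO 1 to 4 and 0, 0.132, 0 and 0 CPM in Spns1 KO 1 to 4, and all 5 WT libraries were at 0. Gm6054 had 66.7, 55.2, 84.7 and 40.03 CPM in FeO and at most 0.0234 CPM in Spns1 KO and 0.0743 CPM in WT. Against Spns1 KO the edgeR adjusted p was 8.9e-06 and 4.7e-07, and WT was not tested. Map1lc3b itself had 125, 116, 138 and 86.5 CPM in Spns1 KO and 208, 137, 165 and 129 CPM in FeO and was not called (log2 difference -0.46, standard error 0.21, adjusted p = 0.196). Summing the 3 genes before the fit gave 125, 116, 138 and 86.5 CPM in Spns1 KO, 476, 429.6, 537 and 300 CPM in FeO and 107, 101, 88.6, 93.4 and 102 CPM in WT 1 to 5. The sum was higher in FeO (log2 difference -1.90, standard error 0.24, adjusted p = 0.00904), and Map1lc3b was not lower in FeO to offset its copies.

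The pair Rps13 and Rps13-ps1 behaved otherwise. Rps13-ps1 (chromosome 8 from 87047689 to 87048226) is a processed pseudogene that matches the coding sequence of the ribosomal protein gene Rps13 (chromosome 7 from 116331505 to 116334195) at 451 of 453 bases, with the substitutions T411C and A429G. The lines give coding bases 393 to 422 with the capital at T411C.
Rps13, chr7:116332379-116332408, minus strand: taagcgggtgctcccaccTaattggaaata
Rps13-ps1, chr8:87048112-87048141, plus strand: taagcgggtgctcccaccCaattggaaata
Rps13-ps1 had 42.1, 27.3, 41.8 and 36.1 CPM in FeO, 0.229, 0.0264, 0.999 and 0 CPM in Spns1 KO and 0.157, 0, 0, 0.665 and 16.9 CPM in WT 1 to 5. Rps13 had 56.9, 59.6, 64.8 and 41.7 CPM in Spns1 KO and 23.4, 16.1, 28.97 and 26.8 CPM in FeO and was called higher in Spns1 KO (log2 difference 1.23, standard error 0.22, adjusted p = 0.0181, edgeR). The sum of both was 57.1, 59.6, 65.8 and 41.7 CPM in Spns1 KO and 65.5, 43.4, 70.8 and 62.8 CPM in FeO, with no call (log2 difference -0.11, adjusted p = 0.747). The call of Rps13 is uncertain for that reason. It was 1 of 2 calls among 81 cytosolic ribosomal protein genes, beside 2.79% of all genes called higher in Spns1 KO. In that list 59 of the 81 were above 0 and the median was 0.19.

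The enolase copy Eno1b had 135, 67.03, 85.9 and 65.2 CPM in FeO, 0.143, 0, 0.0967 and 0 CPM in Spns1 KO and 0 in all 5 WT libraries (edgeR adjusted p = 1.28e-05), and shares 89.2% of its 31-base sequences, mostly with Eno1. Eno1 had 338, 312, 379 and 148 CPM in Spns1 KO and 409, 207, 283 and 242 CPM in FeO (log2 difference 0.043), and the sum of Eno1 and Eno1b gave -0.35 (adjusted p = 0.499), with no call. For Ftl1 and Ftl1-ps1 together the difference was 0.16 (adjusted p = 0.771), close to that of Ftl1 alone.

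In the remaining groups few or no genes were called, beside 2.79% of all genes higher in Spns1 KO and 3.79% in FeO. Among 25 clock genes Npas2 was called higher in FeO (2.87, 3.88, 2.03 and 2.01 CPM against 24.2, 6.11, 16.6 and 4.43 CPM, log2 difference -2.24, standard error 0.50, adjusted p = 0.0331, edgeR), among 19 genes of vitamin D, phosphate and calcium handling Stc1, stanniocalcin 1, was too (-1.46, adjusted p = 0.02) while Slc34a3 was higher in Spns1 KO, and among 16 genes of acid-base handling Slc4a4, Slc7a8 and the carbonic anhydrase Car12 were called higher in Spns1 KO (Car12 1.01, adjusted p = 0.0374) and Car4 in FeO (-1.30, adjusted p = 0.0378). Among p53 response genes Ddit4l (-0.99) and among polyamine and histamine enzymes Azin2 (-0.96) besides Aoc1 were called higher in FeO (adjusted p = 0.0488 and 0.0454). Of 8 listed nuclear noncoding RNAs only Snhg11 had an entry in the deposited counts, and it was called higher in Spns1 KO (1.17, edgeR adjusted p = 0.0446). None was called among 12 endothelial markers (Flt1 0.38, Eng 0.40), 11 immunoglobulin genes (Igkc -0.46, Igha -0.42) or 5 haemoglobin and erythroid genes (Hbb-bs 0.29, Hba-a2 -0.16). The same held for 13 mitochondrially encoded mRNAs (mt-Co1 -0.38, mt-Cytb 0.23), 43 splicing factors (Ddx5 -0.024, Hnrnpa2b1 0.58), 29 cell cycle genes (Pcna -0.70, Rrm1 -0.19), 24 glucocorticoid receptor targets (Pck1 -0.096, Fkbp5 0.049) and 27 immediate early genes (Klf6 0.57, Dusp1 0.75). Of the 32 tested HIF factors and targets, Slc2a1 was called. Spns1 KO 4 stood far above the other Spns1 KO libraries in Dusp1, at 32.1, 28.5, 30.9 and 197 CPM in Spns1 KO 1 to 4 against 23.1, 77.1, 17.8 and 54.1 CPM in FeO.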

How the data were processed

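Kidney RNA labelled with 4-thiouracil was captured and sequenced as poly-A RNA in 13 libraries. The authors deposited 1 table of estimated counts for 35013 gene symbols, which holds whole numbers and was used without further scaling. The submitters' processing notes name bcl2fastq 2.19, kallisto 0.44.0, GRCm38 and DESeq2, and the deposited table is labelled as estimated counts from kallisto. The study's methods describe alignment with STAR and counting with HTSeq instead. Reads that match several genes are treated differently by those tools, and the share of each named gene's 31-base sequences that recurs in other GENCODE M21 genes (GRCm38) is therefore given where it is high. Libraries were grouped by their labels alone.

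The 4 Spns1 KO and 4 FeO libraries were fitted with edgeR 4.0.16 in R 4.3.3, with TMM factors, the filterByExpr filter (15787 genes tested, 19226 not tested), a quasi-likelihood test of the group and Benjamini-Hochberg adjustment over all tested genes. A gene was called at an adjusted p under 0.05 and an absolute log2 difference over 0.5. The fitted log2 differences use edgeR's default prior count. Log2 CPM values, used for the principal components, the permutation test and the comparisons with WT, use a prior count of 2. WT libraries were scaled with TMM factors of their own, computed against the same reference library, and were not tested. Coordinates and sequences were read from GRCm38 with GENCODE M21, in which 15529 of the tested genes had an entry. Library totals ranged from 25986133 to 71296474 counts in the groups tested. The test was first tried on simulated counts.

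Genes were named by a rule: Spns1, the 12 called genes of largest difference and the 8 of smallest p in each direction (mean of at least 100 counts, no overlap of the groups, no predicted genes or pseudogenes), up to 3 called genes a direction in each of 53 lists, and the 2 most abundant members of a list without calls. Further genes (among them Apoe, Nox4, Lgals3, Havcr1, Slc5a2, Lrp2, Fth1, Ftl1, Tfrc, Slc40a1, Ncoa4, Slc7a11, Id3, Slc22a17, the other called list members beyond 3 and all gene copies) were chosen after their values were seen. The comparison, its lists and its rules were chosen with earlier results of these data known. The alternatives were other normalizations and filters, DESeq2 1.42.0, limma-voom (limma 3.58.1), glmTreat, a fit of all 13 libraries, the replicate number as a block, a trend on length and GC content, and leaving out each library. Leaving out FeO 1 and FeO 4 together and summing gene copies were added after the data were seen. Figures were drawn with matplotlib 3.10.9. Some genes that the rule names are not reported here.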

Additional observations from a re-analysis of the deposited data

Results flagged for a closer look

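Among the named genes, 33 of 380 gene and group pairs had 1 library whose gap to the nearest of the other 3 exceeded Dixon's 95% limit for its share of the group's range; chance flags about 1 in 20. Spns1 KO 4 was the library in 10 of them and FeO 4 in 8, FeO 1 in 7, Spns1 KO 2 in 4, Spns1 KO 3 in 2, and FeO 2 and Spns1 KO 1 in 1 each.

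Spns1 KO 4 held the highest Spns1 KO level of the early response genes Dusp1 (197 CPM, others 28.5 to 32.1) and Klf6 (147, others 42.5 to 49.4), of Ppara (269, others 123 to 138), Xaf1 (9.51, others 4.39 to 5.06), Ggnbp1 (31.7, others 23.6 to 24.7) and the mitochondrial mt-Cytb (43682, others 29449 to 31371). It held the lowest of Cat (901 CPM, others 1194 to 1198), Cdhr5 (81.4, others 102 to 105), Slc34a3 (24.6, others 39.2 to 40.8) and Col1a2 (32.8, others 36.3 to 36.7).

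FeO 4 was the highest FeO library for the haemoglobin genes Hba-a2 (75.8 CPM, others 5.13 to 12.2) and Hbb-bs (94.9, others 12.7 to 22.6). It was also highest for Bmp7 (27.7 CPM, others 19.0 to 19.9), Col14a1 (8.53, others 1.87 to 2.76), Fbln1 (2.49, others 0.734 to 0.843), H2-T23 (27.9, others 9.75 to 11.9), Ndufa13 (57.9, others 28.0 to 29.7) and Slc22a17 (21.4, others 7.04 to 8.82). In these last 6 genes FeO 4 lay nearer to the Spns1 KO libraries than the rest of its group.

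FeO 1 was lowest for the tubule genes Cubn (76.7 CPM, others 127 to 134) and Prodh2 (10.1, others 21.4 to 23.4). It was highest for Aoc1 (18.2 CPM, others 6.03 to 7.63), Elf5 (18.4, others 12.6 to 13.3), Hk1 (438, others 191 to 229), Mrap (18.9, others 6.12 to 7.30) and Steap4 (22.2, others 12.9 to 14.4). FeO 2 was lowest for Enpep (32.3 CPM, others 41.6 to 43.1).

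Spns1 KO 2 was highest for Hmox1 (931 CPM, others 44.2 to 77.4), Ddit4l (18.02, others 12.0 to 12.4), H2-T23 (44.6, others 34.6 to 35.6) and Gm6055 (0.132, others 0). Spns1 KO 3 was highest for Cd44 (5.77 CPM, others 2.48 to 2.69) and Cyp4v3 (6.96, others 5.21 to 5.40), and Spns1 KO 1 for Mme (145 CPM, others 101 to 107).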

How the results depend on the processing

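The number of called genes depended on the fit more than on the scaling. Against 441 higher in Spns1 KO and 599 higher in FeO, DESeq2 called 1098 and 1283, a fit of all 13 libraries 1113 and 1334, and glmTreat against 0.5 called 22 and 34. Other normalizations, filters, limma-voom and the length and GC trend stayed within 1.5 times. Leaving out each library gave 22 to 584 genes higher in Spns1 KO and 33 to 666 higher in FeO, and leaving out FeO 1 and FeO 4 together gave 198 and 128. That last fit turned the split from 42.4% to 60.7% of calls higher in Spns1 KO. DESeq2 called 435 of the 441 and 595 of the 599. With the replicate block the counts were 795 and 949, and with the replicate block and the trend on length and GC content 782 and 1111. The labels do not say that a number is shared, and same-numbered libraries deviated together with correlations of 0.14, -0.033, 0.26 and 0.24 for replicates 1 to 4. No library correlated best with its own number, so the numbers were not used as pairs. The cause of these shifts was not tested.

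Among named genes, those that changed sign were not called. Leaving out each library gave -0.20 to 0.0041 for Csf1r, -0.076 to 0.049 for Ddx5, -0.49 to 1.20 for Dusp1, -0.10 to 0.28 for Eno1, -0.032 to 0.18 for Fkbp5 and -0.012 to 0.38 for Ftl1. It gave -0.48 to 1.33 for Hba-a2, -0.34 to 1.37 for Hbb-bs, -1.45 to 1.21 for Hmox1, -0.68 to 0.19 for Igha, -0.044 to 0.76 for Klf6 and -0.37 to 0.24 for Pck1. The ranges were -0.24 to 0.068 for Slc25a39, -0.29 to 0.14 for Slc40a1, -0.15 to 0.091 for Spns2 and -0.40 to 0.20 for Tfrc. With limma-voom the signs of Hba-a2 (0.58), Hmox1 (-0.15) and Pck1 (0.071) turned, with the replicate block those of Hba-a2 (0.71), Hmox1 (-0.26) and Pck1 (0.072), and with the block and the trend those of Hba-a2 (0.66), Hmox1 (-0.22), Pck1 (0.065) and Ddx5 (0.031). Ddx5 turned with the trend alone (0.031) and with a mean of at least 100 counts (0.0053). Without FeO 1 and FeO 4 the differences of Fkbp5 (-0.14), Hba-a2 (1.03), Igha (0.16), Igkc (0.13), Spns2 (0.020) and Tfrc (0.33) turned. The groups hold 4 libraries each.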

Other observations

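Some predicted genes and pseudogenes outside the naming rule, chosen here after their values were seen, were present in 1 group and scarcely in the other. Gm9794 had 2.03, 2.35, 9.801 and 2.87 CPM in Spns1 KO 1 to 4 and 0 in all 4 FeO libraries, with WT 1 to 5 at 0.446, 0, 0.931, 0 and 0 CPM. Mrpl48-ps had 5.55, 3.36, 5.91 and 6.04 CPM in FeO and 0 in all 4 Spns1 KO libraries, and Gm15375 had 1.39, 2.52, 1.74 and 0.732 CPM in FeO and 0 in all 4 Spns1 KO libraries. All of them were called in each of the 8 fits that left out a library. Gm10925 reached 642, 1.28, 4961 and 4.43 CPM in FeO 1 to 4 against 34.3, 7.66, 16.1 and 1.43 CPM in Spns1 KO 1 to 4 and was not called (edgeR adjusted p = 0.0802).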
